A study of Gallus gallus with 48 samples.

Results

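The enzymes that turn farnesyl diphosphate into squalene and squalene into cholesterol were followed in cultured pituitary cells of chicken embryos. The 8 genes described are FDFT1, SQLE, LSS, CYP51A1, MSMO1, NSDHL, HSD17B7 and DHCR7. They were found as every probe of the array that the probe annotation pairs with one of these symbols, 15 probes in all, and the probes of a gene were averaged. All 8 genes had a value on each of the 48 arrays, and they are 8 of the 15027 features (genes and unnamed probes) on the array and 8 of the 11207 that were tested.

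Cholesterol is built in the endoplasmic reticulum from acetyl-CoA by way of mevalonate, farnesyl diphosphate and squalene. Squalene synthase is the first enzyme that commits the pathway to sterols, and the enzymes after it close the rings, remove methyl groups and move double bonds. In mammals their genes are activated together by the transcription factor SREBP-2, the product of SREBF2, which is held back by INSIG proteins and released when membrane sterol falls. Pituitary cells that secrete hormones use cholesterol for the membranes of their granules. The roles given for the single enzymes are known chiefly from mammals and yeast.

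The cells came from pituitaries of embryonic day 11 and were kept in culture. One set of cells first received cycloheximide (CHX, which blocks protein synthesis) at 10 µg/ml for 1.5 h and then corticosterone (CORT, the glucocorticoid of birds) at 1e-09 M for 1.5, 3, 6, 12 or 24 h, with a 0 h group called here CHX alone. The other set received CORT for the same times without CHX, with a 0 h group called untreated. Each of the 12 groups held 4 arrays. The labels name replicates as biological without saying what each one came from, so a p-value here sets a difference against the spread of these samples alone. CORT duration and the hours in culture after the 0 h point cannot be told apart, since both 0 h groups lack CORT, and the titles do not say whether CHX stayed in the medium.

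Each array compared amplified RNA of 1 sample (Cy3) with a pool of all samples (Cy5) on a 2-colour cDNA array. The deposited values are log2 ratios, so a value of 0 equals the pool, and levels of different genes cannot be compared. The sign was read as sample over pool. That direction is likely, not stated: FKBP5, a glucocorticoid target whose protein binds the receptor's chaperone complex, averaged 0.82 ± 0.15 in CORT 6 h after CHX and -0.999 in CHX alone, and 0.06 ± 0.11 in CORT 6 h and -0.996 in untreated cells (SD, n = 4 each). Pairs of arrays correlated at -0.76 to 0.87 over all features, and pairs within a group at -0.69 to 0.79 although the labels give every sample the same dye. FKBP5 is 1 of 5 genes kept as treatment checks. After CHX, the mean over the 5 was 0.336 in CORT 6 h and -0.214 in CORT 24 h, against -0.113 in CHX alone. Without CHX it was -0.089 in CORT 6 h and -0.237 in CORT 24 h, against -0.613 in untreated cells. With the sign turned, every difference called lower would be higher by the same amount. The array medians lay between -0.0376 and 0.0484. No spot intensities were used here, so the signal over background is unknown, and the labelled tissue could not be checked by the level of its hormones.

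After CHX, 6 h of CORT was accompanied by lower values of 5 of the 8 enzymes than in CHX alone. FDFT1 and MSMO1 had the largest differences, to ratios of 0.274 and 0.340 of their level in CHX alone, while HSD17B7, SQLE and CYP51A1 had ratios of 0.680, 0.693 and 0.716. All 8 differences were below 0, with a median of -0.505 on the log2 scale, against -0.003 for all features tested. In this comparison 1.15% of all features passed the threshold (adjusted p under 0.05, limma with Benjamini-Hochberg adjustment over all features) in either direction, and 0.393% passed it as lower. RNA was taken from whole cultures, so fewer cells with a transcript and less transcript per cell cannot be told apart.

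FDFT1 (Entrez gene 422038) encodes squalene synthase, which joins farnesyl diphosphate units head to head. Its log2 ratio was -1.91, -0.72, -1.95 and -0.42 in CORT 6 h after CHX, against -0.37, 1.18, 1.01 and 0.66 in CHX alone. Replicates 1 and 3 lay far below the other arrays at 6 h, and the groups did not overlap, although replicate 4 at 6 h was next to replicate 1 of CHX alone. The difference was -1.87 ± 0.41 (SE; adjusted p = 0.00992).

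MSMO1 (Entrez gene 422423) encodes the methylsterol monooxygenase that oxidises the methyl groups of the first sterol ring. It measured -1.42, -0.58, -1.76 and -0.67 in CORT 6 h after CHX, against -0.12, 1.12, 0.71 and 0.09 in CHX alone. As for FDFT1, replicates 1 and 3 were the lowest at 6 h and the groups did not overlap. The difference was -1.56 ± 0.31 (SE; adjusted p = 0.00413).

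**Figure D1:**
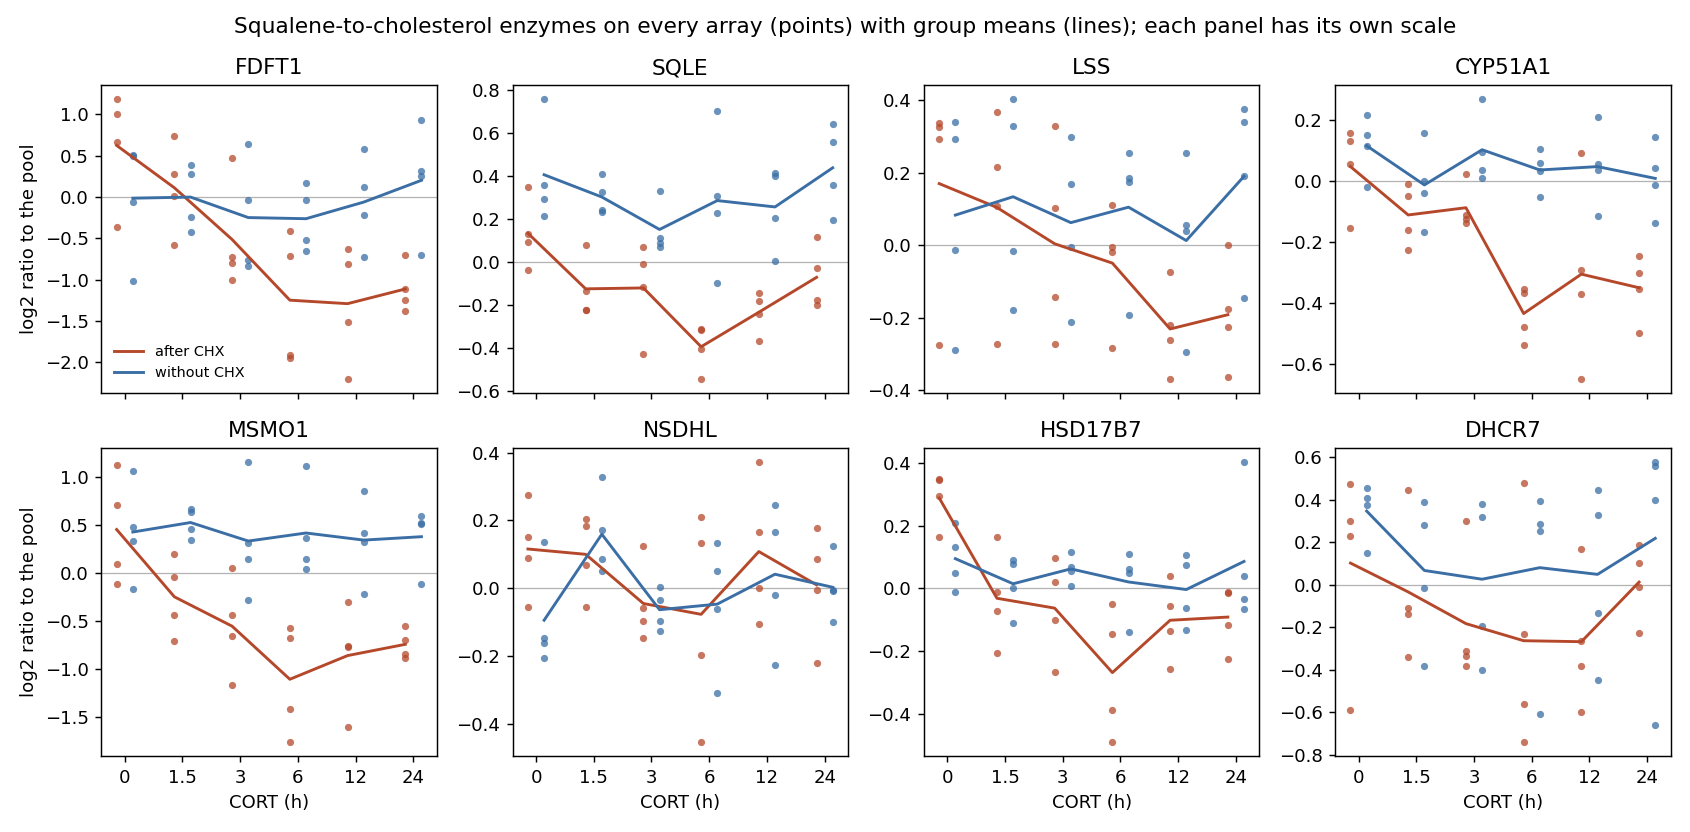
The log2 ratio to the pool of each enzyme is plotted against hours of CORT, with 1 point per array and lines through the means of 4 arrays, after CHX (red) and without CHX (blue). The red lines of FDFT1 and MSMO1 run down to means of -1.25 and -1.11 at 6 h, while the blue lines stay between -0.26 and 0.52, and NSDHL shows no such separation.

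HSD17B7 (Entrez gene 424367) encodes the reductase that restores the hydroxyl group after each demethylation, and it can also reduce estrone. Its values were -0.05, -0.39, -0.49 and -0.15 in CORT 6 h after CHX, against 0.34, 0.16, 0.35 and 0.29 in CHX alone, and every array at 6 h was below every array of CHX alone. The difference was -0.56 ± 0.10 (SE; adjusted p = 0.00147), the smallest adjusted p of the 8, with SDs of 0.21 and 0.09, but it rests on 1 of its 3 probes.

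SQLE (Entrez gene 420335) encodes squalene epoxidase, an oxygen-dependent and rate-limiting step. It measured -0.31, -0.54, -0.41 and -0.31 in CORT 6 h after CHX, against -0.04, 0.35, 0.10 and 0.13 in CHX alone. The groups did not overlap, and the difference was -0.53 ± 0.13 (SE; adjusted p = 0.0277). CYP51A1 (Entrez gene 420548) encodes lanosterol demethylase, the cytochrome P450 of the pathway. It measured -0.48, -0.37, -0.54 and -0.35 in CORT 6 h after CHX, against 0.06, 0.13, 0.16 and -0.15 in CHX alone, again without overlap, with a difference of -0.48 ± 0.10 (SE; adjusted p = 0.00838). Groups of 4 arrays that lay wholly below CHX alone were found for 0, 1, 5, 4 and 4 of the 8 enzymes at 1.5, 3, 6, 12 and 24 h, beside 0.562%, 1.14%, 2.04%, 2.53% and 4.22% of all features.

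The other 3 enzymes did not pass the test at 6 h. LSS (Entrez gene 424037), the lanosterol synthase that closes the rings, measured -0.29 to 0.11 in CORT 6 h after CHX, against -0.28 to 0.34 in CHX alone, a difference of -0.22 (95% confidence interval -0.55 to 0.11). NSDHL (Entrez gene 422302), the dehydrogenase that removes the oxidised methyl group, measured -0.45 to 0.21, against -0.05 to 0.28 in CHX alone, a difference of -0.19 (-0.44 to 0.06). DHCR7 (Entrez gene 422982), the reductase of the last step in one branch, measured -0.74 to 0.48, against -0.59 to 0.48 in CHX alone, a difference of -0.37 (-0.91 to 0.18). All 3 intervals hold 0, and those of LSS and DHCR7 also hold the differences of SQLE and CYP51A1.

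The time course after CHX was gradual for the enzymes with the largest changes. FDFT1 averaged 0.62 ± 0.69 in CHX alone, then 0.11 ± 0.55 at 1.5 h, -0.51 ± 0.67 at 3 h, -1.25 ± 0.80 at 6 h, -1.29 ± 0.72 at 12 h and -1.11 ± 0.29 at 24 h (SD, n = 4 each). MSMO1 averaged 0.45 ± 0.57 in CHX alone, then -0.25 ± 0.40, -0.56 ± 0.50, -1.11 ± 0.57, -0.86 ± 0.54 and -0.74 ± 0.15 at the same times. SQLE was at its lowest at 6 h (-0.39 ± 0.11) and averaged -0.07 ± 0.15 at 24 h, against 0.13 ± 0.16 in CHX alone. Both FDFT1 and MSMO1 thus kept low values to the last time point, where their 4 arrays also lay closest together.

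At 1.5 h and at 3 h after CHX no enzyme passed the test by limma, where 0% of all features passed as lower at either time, while 2 and 3 of the 8 had an unadjusted p under 0.05, beside 2.3% and 6.79% of all features. All 8 differences were already below 0 at these times, with medians of -0.209 at 1.5 h (all features 0.005) and -0.27 at 3 h (all features 0.033). At 12 h, 3 of the 8 passed as lower, against 0.598% of all features. They were FDFT1 (-1.91 ± 0.41, adjusted p = 0.0121), MSMO1 (-1.31 ± 0.31, adjusted p = 0.0272) and HSD17B7 (-0.39 ± 0.10, adjusted p = 0.044; SE in each case). At 24 h, 4 of the 8 passed, all as lower, against 1.6% of all features as lower and 2.24% in either direction.

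At 24 h FDFT1 measured -1.11, -1.25, -0.71 and -1.38 after CHX, against -0.37, 1.18, 1.01 and 0.66 in CHX alone, a difference of -1.73 ± 0.41 (SE; adjusted p = 0.0134). MSMO1 measured -0.84, -0.55, -0.70 and -0.88, against -0.12, 1.12, 0.71 and 0.09 in CHX alone, a difference of -1.19 ± 0.31 (SE; adjusted p = 0.0275). Neither gene had an array in common range with CHX alone. CYP51A1 differed by -0.40 (adjusted p = 0.0268) and HSD17B7 by -0.38 (adjusted p = 0.0334) at this time. LSS was below CHX alone by -0.40 at 12 h and -0.36 at 24 h, with adjusted p-values of 0.292 and 0.341. Without replicate 1 of every group, on which LSS was low throughout, these differences were -0.50 and -0.45 and passed (adjusted p of 0.0349 and 0.0434).

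These calls depended on single arrays. At 6 h, FDFT1 missed the threshold without replicate 1 (-1.65, adjusted p = 0.0686) or replicate 3 (-1.64, adjusted p = 0.0874) of CORT 6 h after CHX, or replicate 3 of CHX alone (-1.74, adjusted p = 0.0658). MSMO1 missed it without replicate 3 of CORT 6 h after CHX (-1.34, adjusted p = 0.0506). CYP51A1 missed it without the same array (-0.45, adjusted p = 0.0623) or replicate 3 of CHX alone (-0.45, adjusted p = 0.0588). SQLE missed it without any 1 of 6 of the 8 arrays, with differences of -0.56 to -0.46. HSD17B7 passed without any 1 of the 8 arrays. With only the groups compared in the fit, none of the 5 passed (adjusted p of 0.107 to 0.155). No enzyme passed at 6 h when replicate 3 of every group was left out, where FDFT1 differed by -1.51 and MSMO1 by -1.25.

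Every call at 12 and 24 h was lost without replicate 3 of CHX alone. The adjusted p then became 0.0792 for FDFT1, 0.129 for MSMO1 and 0.169 for HSD17B7 at 12 h, and 0.0709, 0.124 and 0.132 for these genes and 0.136 for CYP51A1 at 24 h. Leaving out replicate 1, 2 or 4 of CHX alone, or replicate 1 or 3 of CORT 12 h after CHX, also ended at least 1 of the calls at 12 h (adjusted p of 0.066 to 0.248). At 24 h the same held for replicates 1, 2 and 4 of CHX alone and for each of the 4 arrays of CORT 24 h after CHX (adjusted p of 0.0526 to 0.173). With only the groups compared in the fit, none passed at 12 h (adjusted p of 0.122 to 0.344), and CYP51A1 (0.17) and HSD17B7 (0.156) did not at 24 h. The differences stayed below 0 throughout.

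The probes of a gene did not always agree. HSD17B7 has 3 probes, and 1 of the 2 that could be tested alone was lower. That probe, 26.12.18, averaged -0.57 in CORT 6 h after CHX and 0.77 in CHX alone, and tested alone among 14064 probes it was lower at all 5 times, by -1.07, -1.11, -1.34, -1.08 and -0.98 at 1.5, 3, 6, 12 and 24 h (adjusted p-values of 1.34e-05 to 0.00599). Of the 14064 probes, 1, 1, 51, 99 and 233 passed as lower at these times. The second probe, 28.4.2, stayed within -0.06 and 0.10 of CHX alone at the same times, and the third, 1.16.10, had values on 32 of the 48 arrays and was not tested alone. The third entered the average on 2 of the 4 arrays of CORT 6 h after CHX and on 4 of 4 of CHX alone, so the moving probe had unequal weight in the averages of HSD17B7. The moving probe also measured 0.55 higher in CHX alone than in untreated cells (unadjusted p = 0.00487, adjusted p = 1). Which of these probes reads the HSD17B7 transcript was not tested.

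**Figure D2:**
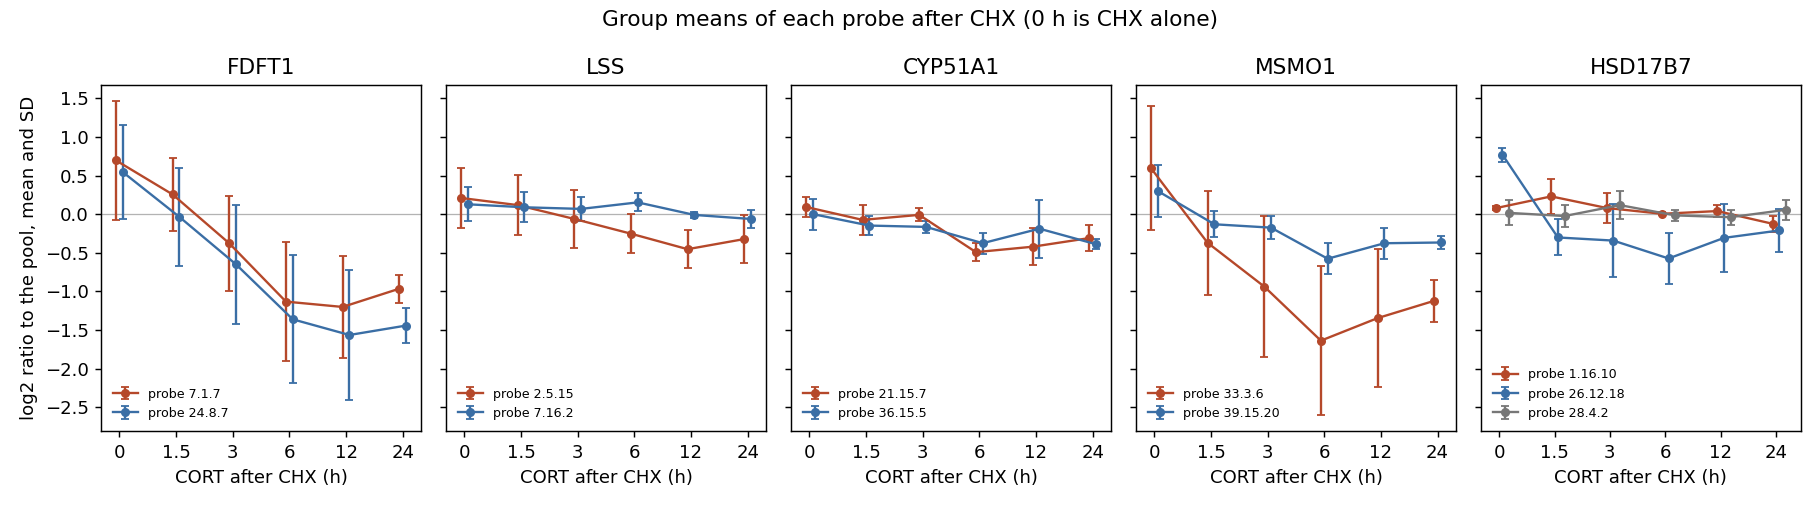
Means of each probe (with SD over up to 4 arrays) are plotted against hours of CORT after CHX for the 5 enzymes with several measured probes, with CHX alone at 0 h. The probes of FDFT1 run together, those of MSMO1 run the same way with different sizes, and of the probes of HSD17B7 only 26.12.18 leaves the range near 0.

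For FDFT1 both probes passed at 6, 12 and 24 h, by -1.91 and -1.83 at 6 h, beside 51, 99 and 233 of 14064 probes that passed as lower. For MSMO1 both passed at these times too, but 1 changed much more than the other, by -2.24 against -0.88 at 6 h. Of the probes of CYP51A1, 1 differed by -0.59 (adjusted p = 0.00593) and the other by -0.38 (adjusted p = 0.184) at 6 h. The probes of LSS split, with -0.46 and 0.02 at 6 h, and neither passed. SQLE has a second probe, which is listed at exactly 0 on 6 arrays and has no value elsewhere. Those zeros pull the average of SQLE towards 0 on these arrays, of which 1 is replicate 1 of CHX alone. With the zeros treated as missing, SQLE differed by -0.52 at 6 h with an adjusted p of 0.0519, and its call was lost.

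Under CORT without CHX, none of the 8 passed against untreated cells at any of the 5 times by limma. Of all features, 0% (1.5 h), 0.0268% (3 h), 0.0982% (6 h), 0.0178% (12 h) and 0.0178% (24 h) passed in either direction. The differences of the 8 ranged from -0.32 to 0.25, and 1 of them had an unadjusted p under 0.05 (NSDHL at 1.5 h, 0.25 higher, where 6% of all features had one). DHCR7 differed by -0.28, -0.32, -0.27, -0.30 and -0.13 at the 5 times. Its differences after CHX against CHX alone were of like size, at -0.14, -0.29, -0.37, -0.37 and -0.09. The medians over the 8 were -0.033, -0.063, -0.077, -0.077 and 0.012 at 1.5, 3, 6, 12 and 24 h. FDFT1 averaged -0.26 ± 0.39 in CORT 6 h and -0.02 ± 0.71 in untreated cells, and MSMO1 averaged 0.41 ± 0.48 in CORT 6 h and 0.42 ± 0.51 in untreated cells (SD, n = 4 each). The difference of FDFT1 at 6 h had a 95% confidence interval of -1.08 to 0.58. Its difference at 6 h after CHX against CHX alone had an interval of -2.70 to -1.04, and these intervals overlapped.

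CHX alone, without CORT, also gave no call among the 8 by limma, where 0.0178% of all features passed in either direction, and 1 enzyme had an unadjusted p under 0.05, as had 2.34% of all features. That was SQLE, which averaged 0.13 ± 0.16 in CHX alone and 0.41 ± 0.24 in untreated cells. FDFT1 measured -0.37, 1.18, 1.01 and 0.66 in CHX alone, against -1.01, -0.06, 0.51 and 0.50 in untreated cells, so the groups overlapped. Its difference was 0.64 ± 0.41 (SE; adjusted p = 1). CHX alone is the baseline of every comparison with CORT after CHX, and for FDFT1 and HSD17B7 it had the highest mean of the 12 groups.

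The same times were also compared between cells with and without CHX, which uses another baseline. At 6 h, 3 of the 8 were lower after CHX, where 1.05% of all features passed as lower and 3.93% in either direction. Groups that lay wholly below those without CHX were found for 2, 1, 3, 2 and 4 of the 8 at the 5 times, beside 2.54%, 1.24%, 4.16%, 1.68% and 5.54% of all features. MSMO1 measured -1.42, -0.58, -1.76 and -0.67 in CORT 6 h after CHX, against 0.04, 1.11, 0.15 and 0.37 in CORT 6 h without CHX. The groups did not overlap, and the difference was -1.52 ± 0.31 (SE; adjusted p = 0.00238). SQLE differed by -0.68 (adjusted p = 0.00115) and CYP51A1 by -0.47 (adjusted p = 0.00483). Leaving out 1 array ended none of these calls, but SQLE missed the threshold with only the groups compared in the fit (adjusted p = 0.0558), MSMO1 without replicate 3 of every group (-1.39, adjusted p = 0.0752) and CYP51A1 without replicate 1 of every group (-0.46, adjusted p = 0.0844). FDFT1 measured -1.91, -0.72, -1.95 and -0.42 after CHX, against -0.65, 0.16, -0.53 and -0.04 without CHX. These groups overlapped in 1 array, and the difference of -0.98 ± 0.41 (SE) had an adjusted p of 0.219. Arrays with the same replicate number varied together in this comparison, and with the replicate number as a block 5 of the 8 passed as lower, against 2.86% of all features, with FDFT1 at an adjusted p of 0.027 and HSD17B7 (-0.29) at 0.0335.

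At 12 h, MSMO1 (-1.20, adjusted p = 0.0371) and SQLE (-0.49, adjusted p = 0.0445) were lower after CHX, against 0.491% of all features that passed as lower and 1.4% in either direction. Neither passed with only these groups in the fit (adjusted p of 0.207 and 0.305) or after quantile normalisation (adjusted p of 0.0626 and 0.0514). Both calls were also lost without any 1 of several arrays, to adjusted p-values of up to 0.263 for MSMO1 and 0.216 for SQLE without replicate 3 of CORT 12 h after CHX. At 24 h, MSMO1 (-1.12, adjusted p = 0.0269), SQLE (-0.51, adjusted p = 0.0155) and CYP51A1 (-0.36, adjusted p = 0.0325) passed, against 2.73% of all features that passed as lower and 4.95% in either direction. Each of these calls was lost without 1 or other of the arrays 1, 2, 3 and 4 of CORT 24 h after CHX or 2, 3 and 4 of CORT 24 h (adjusted p of 0.0511 to 0.137). With only the groups compared in the fit, SQLE (0.0689) and CYP51A1 (0.125) missed the threshold and FDFT1 passed it (0.041). FDFT1 measured -1.11, -1.25, -0.71 and -1.38 in CORT 24 h after CHX, against -0.70, 0.32, 0.26 and 0.93 in CORT 24 h without CHX, without overlap. Its difference of -1.31 ± 0.41 (SE) had an adjusted p of 0.0537, and with the replicate block it passed (adjusted p = 0.00183), as did LSS (-0.38, adjusted p = 0.000746), where 8.34% of all features passed as lower. At 1.5 and 3 h none of the 8 passed by limma, where 0.0892% and 0.0446% of all features passed as lower, and 2 of the 8 had an unadjusted p under 0.05 at each time, beside 10.5% and 6.64% of all features. With the replicate block, MSMO1 (-0.77, adjusted p = 0.0496) and SQLE (-0.43, adjusted p = 0.0473) passed at 1.5 h, where 0.714% of all features did as lower.

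Whether the change from the 0 h group differed between cells with and without CHX was tested as the difference of these 2 responses. No group had CHX without CORT at a later time. A changed response to CORT and the hours since CHX therefore cannot be told apart here. None of the 8 passed at any time by limma, and none passed in the F-test over all 5 times (adjusted p of 0.69 to 1, with 3 of the 8 and 4.71% of all features at an unadjusted p under 0.05), where 0% of all features passed. At 6 h, 0.00892% of all features passed, and 5 of the 8 enzymes had an unadjusted p under 0.05, beside 5.03% of all features. MSMO1 had a difference of responses of -1.55 (95% confidence interval -2.44 to -0.65, adjusted p = 0.346), FDFT1 of -1.62 (-2.80 to -0.44, adjusted p = 0.632) and HSD17B7 of -0.48 (-0.77 to -0.19, adjusted p = 0.363). With the replicate number as a block some of these differences passed. They were MSMO1 at 6 h (adjusted p = 0.0235), where 0.0178% of all features passed as lower, and FDFT1 (-1.95, adjusted p = 0.021), LSS (-0.47, adjusted p = 0.0298) and MSMO1 (-1.15, adjusted p = 0.0495) at 24 h, where 0.821% did. In the F-test over all times FDFT1 then passed (adjusted p = 0.0337), as did 0.277% of all features. FDFT1 also passed by limma without the block. This was so with array weights at 24 h (adjusted p = 0.013) and over all times (0.0167). With the ribosomal protein mean as a covariate it passed at 6 h (0.0394), at 24 h (0.0272) and over all times (0.0173). Over the alternatives other than left-out arrays, 0 to 13 features passed at 6 h, 0 to 150 at 24 h and 0 to 67 over all times. The outcome thus depended on the fit for FDFT1, MSMO1 and LSS, and it was not shown in any fit for the other 5.

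The group means of the enzymes other than NSDHL correlated with each other, and some enzymes also varied together within groups. Over the 12 group means, the 28 pairs of enzymes correlated at -0.11 to 0.94 with a median of 0.73, and each enzyme correlated with the mean of the others at 0.78 to 0.95 except NSDHL, at 0.07. Within groups, over the 48 arrays, the pairs correlated at -0.44 to 0.84 with a median of 0.165. The highest of these were between FDFT1 and DHCR7 (0.84), LSS and DHCR7 (0.82), FDFT1 and LSS (0.80) and FDFT1 and MSMO1 (0.72). The group means of DHCR7 and LSS had SDs of 0.183 and 0.133, beside SDs within groups of 0.398 and 0.235. For DHCR7 and LSS, a shared profile over the groups and deviations shared between arrays cannot be told apart. These points share arrays and the pool, and the values are descriptions.

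Much of the spread between arrays of 1 group ran with the ribosomal protein genes, 44 of which were averaged per array. Over the 48 arrays and within groups, this mean correlated at 0.81 with FDFT1, 0.79 with DHCR7, 0.77 with LSS and 0.57 with MSMO1, but at 0.09 with SQLE, -0.04 with HSD17B7, -0.06 with CYP51A1 and -0.40 with NSDHL. The enzymes thus fell into a set that followed the ribosomal genes from array to array and a set that did not. The ribosomal mean itself was -0.17 to 0.21 in CORT 6 h after CHX, against -0.11 to 0.15 in CHX alone, and -0.34 to -0.11 in CORT 24 h after CHX, so that at 24 h it was lower in every array than in CHX alone. With this mean as a covariate, FDFT1 differed from CHX alone by -1.79, -1.40 and -1.19 at 6, 12 and 24 h (adjusted p-values of 1.01e-05 to 0.00254). Over the alternatives other than left-out arrays, 15 to 423, 1 to 547 and 139 to 784 features passed at these times. The ribosomal mean itself averaged -0.163 at 12 h and -0.177 at 24 h after CHX, against 0.047 in CHX alone. At 12 h it was -0.376 to 0.017 and overlapped with CHX alone. The values of FDFT1 with the covariate at 12 and 24 h therefore cannot be parted from that change. MSMO1 at 24 h against CORT 24 h without CHX lost its call with the covariate (-0.71, adjusted p = 0.0833).

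**Figure D3:**
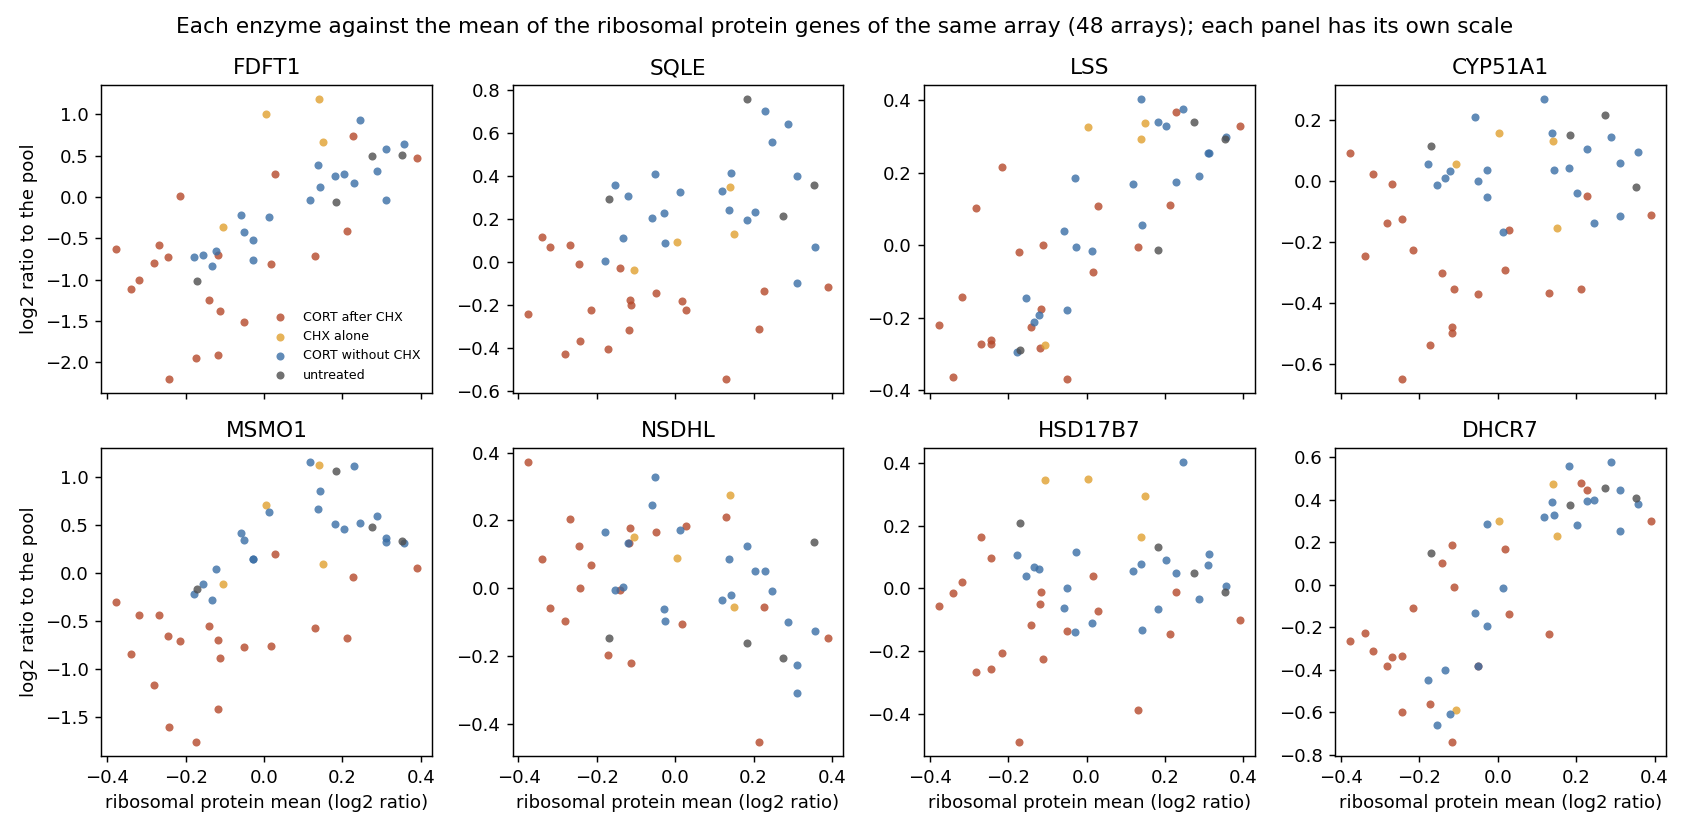
The log2 ratio of each enzyme is plotted against the mean log2 ratio of 44 ribosomal protein genes on the same array, for 48 arrays coloured by treatment. FDFT1, LSS and DHCR7 lie along a rising band, and in FDFT1 and MSMO1 the arrays of CORT after CHX (red) reach lower values than the other arrays with a like ribosomal mean.

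Replicate numbers also ran with the enzymes. LSS was lowest on replicate 1 in 12 of the 12 groups, DHCR7 in 10, FDFT1 in 8 and MSMO1 in 7, and the ribosomal mean was lowest on replicate 1 in 9. NSDHL was lowest on replicate 4 in 11 of the 12 groups, and HSD17B7 and CYP51A1 were lowest on replicate 3 in 7 each. The labels number the replicates without saying what arrays of 1 number share.

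Markers of other cell types were followed beside these changes. None of the marker genes tested passed at 6 h after CHX against CHX alone. The mean over 5 marker genes of neurons and glia was -0.46 to -0.06 in CORT 6 h after CHX, against -0.06 to 0.31 in CHX alone, and -0.67 to -0.22 in CORT 24 h after CHX. At 6 h 3 of the 5 differed below 0 with a median of -0.001, and TUBB3 among them differed by -1.60 (adjusted p = 0.172). The mean over 6 fibroblast genes was 0.01 to 0.17 in CORT 6 h after CHX and -0.74 to -0.21 in CORT 24 h after CHX, against -0.29 to 0.42 in CHX alone, and at 24 h FN1, the fibronectin gene, was lower by -0.69 (adjusted p = 0.025). The mean over 9 genes of pituitary hormone cells was -0.24 to 0.00 in CORT 6 h after CHX, against -0.22 to 0.05 in CHX alone. Against CORT without CHX, TSHB, a subunit of thyrotropin, was lower after CHX by -1.21 at 12 h and -1.78 at 24 h, with adjusted p-values of 0.0219 and 0.000224. At 24 h CHGA, a granule protein (-1.38, adjusted p = 0.0187), and TUBB3 (-2.19, adjusted p = 0.0106) were lower as well. Of the 9 hormone-cell genes only TSHB and CHGA passed in this comparison. The mean over the 9 was -0.187 in CORT 24 h after CHX and 0.17 in CORT 24 h without CHX. This mean includes TSHB and CHGA, so it does not show a loss of the other hormone-cell genes. Their part in the changes of the enzymes was not tested, and ratios to a pool do not show whether a marker is at 0.

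Of the enzymes before squalene, 6 of 9 were tested and 1 was lower at 6 h after CHX than in CHX alone. HMGCS1, which makes HMG-CoA from acetyl-CoA units, averaged -0.69 ± 0.24 in CORT 6 h after CHX and 0.22 in CHX alone, a difference of -0.91 ± 0.22 (SE; adjusted p = 0.0191), and its differences at the other times had adjusted p-values of 0.324 or more. FDPS, which makes the farnesyl diphosphate used by FDFT1, differed by -0.65 at 6 h (adjusted p = 0.562) and by -1.41 ± 0.34 (SE) at 24 h (adjusted p = 0.0146), when it was the member of this list that passed. Both also passed against CORT at the same time without CHX, HMGCS1 at 6 h (-0.74, adjusted p = 0.0414) and FDPS at 24 h (-1.61, adjusted p = 0.00294). The median over the 6 was -0.147 at 6 h.

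Of 7 other enzymes after squalene, 2 were tested and neither passed: ERG28, a scaffold of the demethylating complex, differed by -0.38 at 6 h (adjusted p = 0.361) and FAXDC2 by 0.10. Of 20 genes that sense, take up or export sterols, 12 were tested and none passed at any time after CHX against CHX alone, with a median of -0.135 at 6 h. SREBF2 differed by -0.37 (adjusted p = 0.123), INSIG1 by -0.32 (adjusted p = 0.104) and VLDLR, a lipoprotein receptor, by -0.29 (adjusted p = 0.65) at 6 h. Of 13 genes of fatty acid synthesis and desaturation, 11 were tested and none passed after CHX against CHX alone, with a median of -0.125 at 6 h. Counts at 6 h were thus 5 of the 8 enzymes, none of the 2 others after squalene, 1 of 6 before squalene and 0 in the other lists. Of all features, 0.393% passed as lower. Of the 5, HSD17B7 rests on 1 of its probes, and SQLE lost its call with exact zeros as missing. The mean over the 6 genes before squalene was -0.308 to -0.049 at 6 h after CHX and -0.319 to -0.18 at 24 h. In CHX alone it was -0.139 to 0.307. All lists were chosen with earlier results known, and a difference between lists was not tested.

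**Figure D4:**
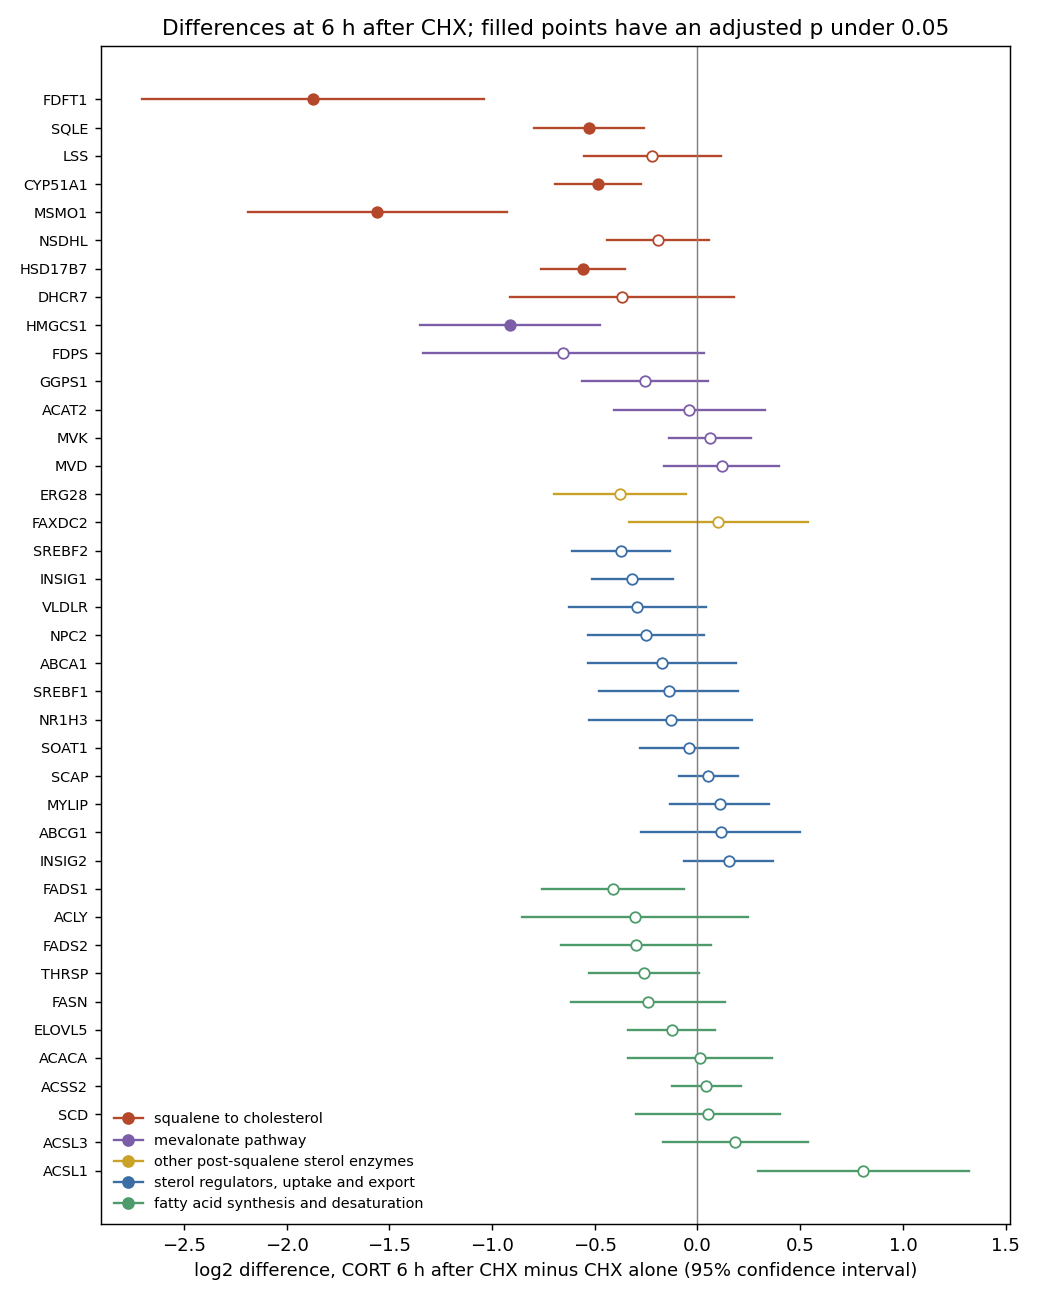
Each row is a gene, with its log2 difference at 6 h of CORT after CHX minus CHX alone and the 95% confidence interval, and filled points have an adjusted p under 0.05. The filled points are FDFT1, SQLE, CYP51A1, MSMO1, HSD17B7 and, before squalene, HMGCS1, which differed by -0.91.

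The named genes outside the 8 whose 12 group means were most like the mean profile of the enzymes were HSPA5 (r = 0.959), PCNA (0.958), TUBB3 (0.956), HEY1 (0.955), AGTR1 (0.953), SLC22A23 (0.949), CTSB (0.938), PACSIN1 (0.938), PTMS (0.938) and SLC38A10 (0.936). AGTR1, the angiotensin receptor, was lower in CORT 6 h after CHX than in CHX alone by -1.85 (adjusted p = 0.000364), and HEY1, a target of Notch signalling, by -1.72 (adjusted p = 0.00118). PCNA, the clamp of DNA polymerase, differed by -0.80 (adjusted p = 0.0138), PTMS by -1.10 (adjusted p = 0.0278) and PACSIN1 by -0.37 (adjusted p = 0.00838). HSPA5, the main chaperone of the endoplasmic reticulum, differed by -0.75 with an adjusted p of 0.15, and TUBB3, a neuronal tubulin, by -1.60 with an adjusted p of 0.172. The mean profile was highest in CHX alone (1.003, standardised) and lowest in CORT 6 h after CHX (-1.523). Lower values in this comparison thus follow from how these genes were picked, and their adjusted p-values are no separate evidence. The likeness is over 12 points that share arrays and a pool, and it describes these values only.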

How the data were processed

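Ratios to a pool of all samples were measured on 48 arrays, 4 in each of 12 groups taken from the sample titles. The authors deposited log2 ratios of 19200 probes, per the file headers; for background correction, normalisation and software nothing is given in the sources used here. That the log has base 2 rests on few values: among 739065 nonzero ones, 631 fit a ratio of integers below 200 to 8 decimals with base 2, against 75 with the natural log and 135 with log10. No column of the table was without a sample. The probe annotation gave 10601 probes 1 symbol, 8599 none and 0 several, and 10455 had a gene identifier found in RefSeq (assembly GRCg7b). No sequence or coordinate was used here.

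Probes of 1 symbol were averaged. A feature needed values on at least 3 of 4 arrays in each group, which left 11207 of 15027 features (5644 named, 5563 unnamed) with 0.866% of values missing. These were fitted in 1 group-means model with limma 3.58.1 (R 4.3.3; 36 residual degrees of freedom), with two-sided tests, Benjamini-Hochberg adjustment over all features within each comparison and 0.05 as the threshold. The fit was run on simulated data in which features were moved by known amounts in CORT 6 h after CHX. It recovered 46% of 50 features moved by 0.5 on the log2 scale, 92% at 1 and 100% at 1.5 and 2. It also called 13 features that were not moved. The simulated arrays varied independently, so arrays that deviate together were not covered. Figures were drawn with matplotlib.

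The 8 genes and all lists were chosen with earlier results of these data known. Genes to be named were the 8, list members that passed or had 1 of the 3 largest differences at 6 h after CHX, and the 10 genes most like the mean profile. Not every list member that met this rule is named here, and none of the fatty acid list is. Same-numbered arrays deviated together (every pair over 0.1) in 6 of 16 comparisons: CORT 1.5 h and 6 h after CHX against CHX alone, CORT 24 h against untreated, and after against without CHX at 1.5, 6 and 24 h. The number is shared in the titles and its meaning is not stated. Alternatives were other normalisation, filters, array weights, fits of fewer groups, the replicate block, zeros as missing, single probes, a ribosomal covariate and leaving out arrays. The promoter search that was planned could not be run. The labels speak of 16 slides, and this was not resolved.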

Additional observations from a re-analysis of the deposited data

Results flagged for a closer look

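In each group of 4 arrays, the highest or lowest value was set against the others, and 6 of the 96 groups of an enzyme had an array farther off than the critical value of Dixon's test allows. Chance gives about 1 in 20 groups where groups are independent. These groups share arrays, and LSS and DHCR7 were lowest on replicate 1 in 12 and 10 of the 12 groups. The count of 6 of 96 therefore cannot be set against that share. Replicate 1 was far below the others for DHCR7 in CORT 6 h (-0.608) and in CORT 24 h (-0.6621). The same held for LSS in CHX alone (-0.2771) and for MSMO1 in CORT 24 h (-0.1178). Replicate 4 of CORT 3 h after CHX was above the others in DHCR7, at 0.3007. SQLE was 0.3317 on replicate 2 of CORT 3 h, above the others, and this is an array on which its second probe is listed at 0 while the first reads 0.6633. LSS in CHX alone, which lay between 0.29 and 0.34 on the other arrays, is the baseline of each comparison with CORT after CHX.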

How the results depend on the processing

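Over the differences of the 8 enzymes in every comparison and alternative, 4308 values kept their side of the threshold. A call was lost in 142 and gained in 54, and no called difference changed sign. For probes tested alone, 1 probe per gene was counted. Probes with the sign of the main difference came first, and then the smallest adjusted p. A change of sign could thus hardly show in that setting. Probe 28.4.2 of HSD17B7, not counted at 24 h, averaged 0.06 in CORT 24 h after CHX and 0.02 in CHX alone. Counts of enzymes that passed changed in several settings, and not every change is listed here. Against CHX alone, fitting only the groups compared gave 0 at 6 h, 0 at 12 h and 2 at 24 h. Array weights gave 3 at 3 h, where this setting called the most features (1457 of 11207), and 5 at 12 h. Testing each probe alone gave 1 at 1.5 h and 1 at 3 h (HSD17B7), where 1 of 14064 probes passed as lower at each time. With the replicate number as a block, 1 enzyme passed at 3 h, 5 at 12 h and 5 at 24 h. LSS was among them at both later times (adjusted p-values of 0.00168 and 0.00234). Over the alternatives other than left-out arrays, up to 547 features passed at 12 h and up to 784 at 24 h. Gains were thus not limited to the enzymes. Against CORT without CHX at the same time, the replicate block gave 2 at 1.5 h, 1 at 3 h, 5 at 6 h, 4 at 12 h and 5 at 24 h. With the block, 0.714%, 2.86% and 8.34% of all features passed as lower at 1.5, 6 and 24 h. Array weights gave 1 enzyme at 3 h, 4 at 12 h and 6 at 24 h there. Over the alternatives other than left-out arrays, up to 313, 743 and 1882 features passed at 3, 12 and 24 h. At 12 h the count of enzymes was 1 with exact zeros as missing, 0 with only the groups compared and 0 after quantile normalisation. For the difference of responses, the replicate block gave 1 at 6 h, 3 at 24 h and 1 over all times. Array weights gave 1 at 24 h and 1 over all times, and the ribosomal covariate gave 1 at 6 h, 1 at 24 h and 1 over all times. Over the same alternatives, 0 to 13 features passed at 6 h, 0 to 150 at 24 h and 0 to 67 over all times. The replicate block changed no other count of enzymes. The cause of these changes was not tested.

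Leaving out replicates gave 0 to 5 enzymes at 6 h, 0 to 4 at 12 h and 0 to 3 at 24 h after CHX against CHX alone, and 2 to 3, 0 to 2 and 0 to 4 against CORT without CHX. In all other comparisons no enzyme passed with a replicate left out. Over all features, 3 were called at 3 h after CHX against CHX alone, with 0 to 1457 under the alternatives (most with array weights). There were 129 at 6 h, with 15 to 423 under the alternatives, 126 at 12 h (1 to 547) and 251 at 24 h (139 to 784, and 59 to 315 with replicates left out). Against CORT without CHX, 18 were called at 3 h (0 to 313) and 440 at 6 h (259 to 1174, and 80 to 430 with replicates left out), 157 at 12 h (0 to 743) and 555 at 24 h (313 to 1882, and 56 to 865 with replicates left out). Arrays with the same replicate number correlated at -0.47 to 0.86 in their deviations from the group means. The number of arrays limits the precision.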
